A study of Homo sapiens with 4 samples.

Results

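C14orf132, MDFI, GPR161, SYNPO, RBPMS2, PLCG2 and NOS2 are 7 protein-coding genes with few or no reads in scramble shRNA cells and far more in FTO shRNA cells, out of 62893 genes listed in the count tables. They were picked from a list of symbols drawn up for exactly that difference, so their levels and folds describe them and carry no test. The cells are Hep-G2, a human line derived from a hepatoma, at passage 21. The tested cells, called shFTO, carried the shRNA TRCN0000246247 against FTO, the demethylase that acts on N6-methyladenosine in RNA, and the control cells, called scramble, carried the shRNA SHC002. A single shRNA stood for each condition, and no label says whether the cells were a clone or a pool. RNA sequencing of total RNA gave 2 count tables per condition, 4 in all, with 20220271 and 20706611 reads assigned to genes for shFTO and 20047409 and 20474554 for scramble. A chi-square test found no difference beyond sampling noise between the 2 tables of a condition (chi-square per degree of freedom 1.013 for shFTO over 13674 genes, p = 0.142, and 1.019 for scramble over 13359 genes, p = 0.0648). They were therefore pooled for each fold and counted as 1 sample, so every comparison sets 1 shFTO sample beside 1 scramble sample, without a check by replicates.

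FTO itself had 116 and 128 reads in the shFTO tables, against 594 and 550 in the scramble tables. As CPM (reads per 1e+06 of the scaled library size) that is 5.42 and 5.84 for shFTO and 31.4 and 28.5 for scramble, a level 5.32-fold lower in shFTO (95% counting interval 4.63 to 6.13). Intervals on folds are exact Clopper-Pearson intervals on the pooled reads, and here and below they cover counting error only. Hepatocyte markers were present in both conditions, and their summed level was 17196 and 17131 CPM in shFTO against 42169 and 42102 CPM in scramble. Of the 10 markers 7 were at least 2-fold lower, against 6.19% of all genes that passed a low count filter. In bulk RNA, fewer cells of a kind and less RNA per cell cannot be told apart.

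The 7 genes do not belong to a single pathway. MDFI encodes I-mfa, which binds myogenic basic helix-loop-helix factors such as MyoD and TCF/LEF factors of Wnt signalling and holds them inactive. RBPMS2 encodes an RNA-binding protein of smooth muscle, shown in chick gut to keep muscle cells immature. SYNPO encodes synaptopodin, an actin-binding protein of kidney podocytes and dendritic spines. GPR161 is an orphan receptor of the primary cilium that raises cAMP and restrains hedgehog signalling. PLCG2 is a phospholipase C best known downstream of the B cell receptor, which cleaves a membrane phosphoinositide into the second messengers IP3 and diacylglycerol. NOS2 is the inducible nitric oxide synthase, which hepatocytes and macrophages make in response to cytokines. C14orf132 is annotated as protein-coding, and its function is little characterised.

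For 5 of the 7 genes RefSeq gives promoter windows (build GRCh38.p14), with 13 annotated starts among them, and the windows differ widely in CpG content, that is, in cytosines followed by guanine. The 250 bases before the most upstream start of 3 of the genes are printed here to show that range, 5′ to 3′ on the gene's strand, in lower case with CpG dinucleotides in capitals. The window of RBPMS2, with 42 CpG, is chr15:64775590-64775839 on the minus strand. That of MDFI, with 19 CpG, is chr6:41636768-41637017 on the plus strand, and that of GPR161, with 1 CpG, is chr1:168137668-168137917 on the minus strand.
RBPMS2: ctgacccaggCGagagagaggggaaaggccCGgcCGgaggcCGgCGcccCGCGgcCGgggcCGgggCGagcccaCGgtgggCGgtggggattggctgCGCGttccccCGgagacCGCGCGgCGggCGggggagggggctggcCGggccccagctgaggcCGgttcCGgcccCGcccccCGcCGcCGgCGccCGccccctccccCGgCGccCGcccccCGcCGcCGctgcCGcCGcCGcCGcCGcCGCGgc
MDFI: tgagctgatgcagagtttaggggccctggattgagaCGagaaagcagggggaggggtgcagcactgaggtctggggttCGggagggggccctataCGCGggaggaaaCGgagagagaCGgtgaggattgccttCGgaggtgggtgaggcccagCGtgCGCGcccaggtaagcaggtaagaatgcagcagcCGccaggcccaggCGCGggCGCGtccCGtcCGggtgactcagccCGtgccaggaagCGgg
GPR161: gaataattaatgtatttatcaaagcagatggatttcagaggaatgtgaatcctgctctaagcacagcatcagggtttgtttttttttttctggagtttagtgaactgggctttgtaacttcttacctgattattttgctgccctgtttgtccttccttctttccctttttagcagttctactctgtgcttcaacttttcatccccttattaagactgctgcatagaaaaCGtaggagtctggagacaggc

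Over all 35116 windows of the RefSeq table the median was 11 CpG and 58.0% G+C. The most upstream window of RBPMS2 was 87.2% G+C, that of MDFI 66.8% and that of GPR161 39.2%. SYNPO had 6 CpG at each of its starts and PLCG2 had 4 at its only start. GPR161 has further starts downstream, of which the pair closest to the gene body had 33 and 39 CpG. A ratio of observed to expected CpG above 0.6 was found in 6 of the 13 windows, from 3 genes (MDFI, GPR161 and RBPMS2), against 47.5% of all windows. Searched on both strands, the TATA box TATAAA was in none of the 13 windows, against 10.7% of all windows, and the GC box GGGCGG was in 8 of 13, against 42.6%. The CCAAT box, searched as CCAAT, was in 2 of the 13, against 32%, and the AP-1 site TGANTCA was in 1, an MDFI window, against 6.57%. The 13 windows overlap in part and are not independent, and a match or its absence is a description of these letters and not of a factor.

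As FTO acts on N6-methyladenosine, the RNA motif GGACU, a common core of methylated sites, was counted as GGACT in the longest protein-coding transcript of each gene in GENCODE v29. The number per kilobase was 3.07 for MDFI, 1.94 for GPR161, 1.19 for C14orf132, 1.13 for SYNPO, 0.996 for RBPMS2, 0.958 for NOS2 and 0.689 for PLCG2. These values rest on few sites, in the same order 5, 16, 9, 8, 2, 4 and 6, and the MDFI transcript is 1629 bases long. Counts per gene do not tell which transcript was present. Over 11978 tested protein-coding genes the median was 0.935 per kilobase, with quartiles at 0.575 and 1.40. MDFI and GPR161 were above the upper quartile and the other 5 genes lay between the quartiles. Methylation of these transcripts was not measured.

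**Figure D1:**
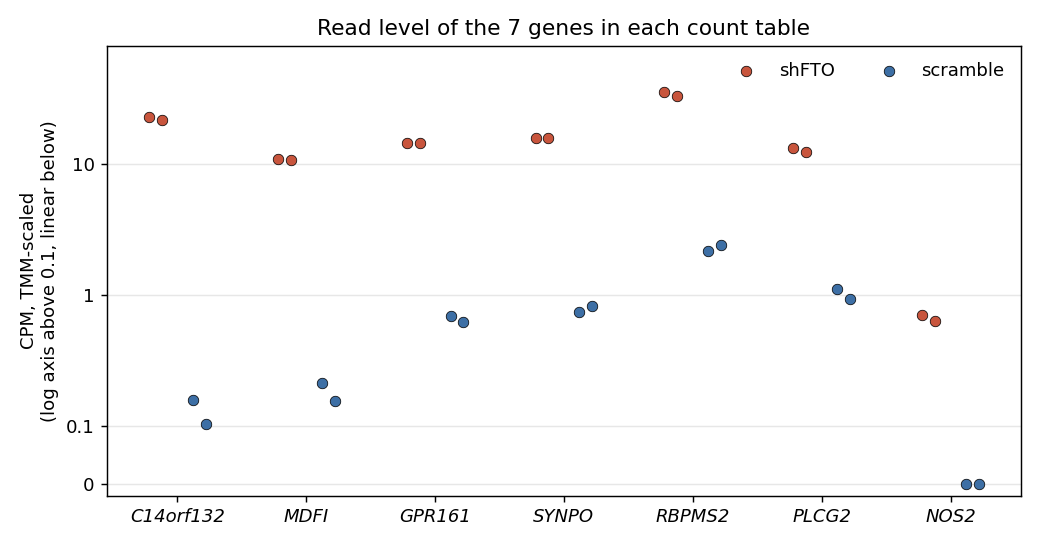
CPM of each of the 7 genes in each count table, shFTO tables (red) to the left of scramble tables (blue); the vertical axis is logarithmic above 0.1 and linear below. Each point is a table, and for every gene both shFTO points lie above both scramble points, with NOS2 at 0 in scramble.

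Among the 13767 genes that passed the low count filter, all 7 passed, NOS2 with 29 reads and all of them in shFTO. All 7 were past 2-fold in shFTO, as were 5.18% of all genes tested, and 6 were past 10-fold, as were 0.501%. In each of the 7 both shFTO tables lay above both scramble tables, as they did in 41.4% of all genes tested. These counts follow from how the genes were picked. Summed over the 7 genes there were 4834 reads in shFTO and 194 in scramble.

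MDFI, the inhibitor of myogenic factors, had 234 and 236 reads (10.9 and 10.8 CPM) in the shFTO tables and 4 and 3 reads (0.212 and 0.155 CPM) in the scramble tables. The shFTO tables were alike and far above both scramble tables. The pooled level was 59.2-fold higher in shFTO (28.5 to 148). Its paralog MDFIC had 1 read in shFTO and none in scramble. A list of 25 genes held I-mfa partners and relatives and also the helix-loop-helix inhibitors ID1, ID2, ID3 and ID4, and 14 passed the filter. Among the 14, 2 were at least 2-fold higher and none was at least 2-fold lower, against 5.18% and 6.19% of all genes tested. The median log2 ratio was 0.22, against 0.01 over all genes tested. ZIC2, a zinc finger factor bound by I-mfa, had 291 and 313 reads in shFTO and 77 and 99 in scramble (3.03-fold higher, 2.55 to 3.60). ID3, an inhibitor of basic helix-loop-helix factors, averaged 111 CPM in shFTO and 46.3 CPM in scramble (2.40-fold higher, 2.27 to 2.54). The myogenic factors that I-mfa is named for, MYOD1, MYF5, MYF6 and MYOG, had no read in any table. Of 6 skeletal muscle markers 4 had no read in any table, and the summed level was 24.5 and 26.7 CPM in shFTO against 6.09 and 6.11 CPM in scramble. CKM, muscle creatine kinase, was 7.98-fold higher (6.25 to 10.3) and ACTA1, skeletal actin, 2.51-fold higher (2.1 to 3.03). Their part in the MDFI difference was not tested.

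RBPMS2 was the most abundant of the 7 in both conditions. It had 767 and 723 reads (35.8 and 33.0 CPM) in the shFTO tables and 41 and 47 reads (2.17 and 2.43 CPM) in the scramble tables. It was not silent in scramble, where its pooled level was 2.30 CPM, although the median gene tested had 22.3 CPM there. Of all 19314 protein-coding genes with a symbol, those without reads included, 50.1% had a lower level per kilobase in scramble. The description as nearly silent thus holds least for it among the 7. The pooled level was 14.9-fold higher in shFTO (12 to 18.7). Its paralog RBPMS was lower, with 906 and 959 reads in shFTO and 1341 and 1380 in scramble, 1.66-fold lower in shFTO (1.56 to 1.76). As RPKM (CPM per kilobase of exon), RBPMS2 stood at 16.4 and RBPMS at 4.82 in shFTO, whereas in scramble RBPMS2 stood at 1.10 and RBPMS at 7.98. Per kilobase, the paralog with the higher level thus differed between the conditions. By CPM, which is not scaled by length, RBPMS was the higher in both. It stood at 43.0 CPM against 34.4 for RBPMS2 in shFTO, and at 71.2 against 2.30 in scramble. The order per kilobase in shFTO thus rests on the exon lengths used, 8931 bases for RBPMS and 2101 for RBPMS2, each the union of all annotated exons. Of 21 smooth muscle and bone morphogenetic protein genes, 14 passed the filter and had a median log2 ratio of 0.32. Among the 14, CNN1, calponin of smooth muscle, was past 2-fold, at 4.71 CPM in shFTO and 1.15 CPM in scramble (4.09-fold higher, 2.94 to 5.80). TAGLN, another actin-binding protein of smooth muscle, was 1.94-fold higher (1.86 to 2.02) and ACTA2, smooth muscle actin, 1.07-fold (0.995 to 1.16). Of 6 smooth muscle markers MYOCD had 1 read in shFTO and none in scramble and LMOD1 none in either, and their summed level was 42.4 and 38.0 CPM in shFTO against 35.1 and 33.1 CPM in scramble. Their part in the RBPMS2 difference was not tested.

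SYNPO, synaptopodin, had 340 and 347 reads (15.9 and 15.8 CPM) in the shFTO tables and 14 and 16 reads (0.741 and 0.829 CPM) in the scramble tables. The pooled level was 20.2-fold higher in shFTO (14 to 30.2), and the tables of a condition were nearly equal. The related SYNPO2L had 17 and 29 reads in shFTO and 9 and 15 in scramble, and SYNPO2 had 3 reads in shFTO and none in scramble. Of 23 actin and podocyte genes, 18 passed the filter, with a median log2 ratio of 0.10. Among the 18, 2 passed 2-fold upward and 1 downward, against 5.18% and 6.19% of all genes tested. WT1, a podocyte transcription factor also known from Wilms tumour, was 2.37-fold higher (2.03 to 2.77) and PODXL, podocalyxin, 2.08-fold higher (1.55 to 2.81). MAGI2, a scaffold of the podocyte slit diaphragm, was 2.16-fold lower (1.54 to 3.07). Alpha-actinin ACTN4, which synaptopodin binds, had 36675 reads in shFTO and 29671 in scramble and was 1.09-fold higher (1.07 to 1.11). NPHS1, nephrin, was below the filter, with 10 and 10 reads in shFTO and 2 and 1 in scramble (ratio 5.88, 1.74 to 30.9). Of 5 podocyte markers 3 passed the filter, all at least 2-fold higher, against 5.18% of all genes tested. The summed level of the 5 was 20.2 and 19.6 CPM in shFTO against 7.89 and 7.72 CPM in scramble. The part of these markers in the SYNPO difference was not tested.

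GPR161, the ciliary receptor, had 313 and 318 reads (14.6 and 14.5 CPM) in the shFTO tables and 13 and 12 reads (0.688 and 0.622 CPM) in the scramble tables. The pooled level was 22.2-fold higher in shFTO (14.9 to 34.6), with no overlap between the conditions. Of 32 hedgehog and cilium genes, 23 passed the filter, with a median log2 ratio of 0.08. Among the 23, 1 was at least 2-fold higher and 3 were at least 2-fold lower, against 5.18% and 6.19% of all genes tested. PTCH1, the hedgehog receptor and itself a target of the pathway, had 4.11 CPM in shFTO and 9.35 CPM in scramble (2.28-fold lower, 1.90 to 2.74). The coreceptor CDON was 2.31-fold lower (2.05 to 2.61). The ligand IHH, Indian hedgehog, had 42 and 46 reads in shFTO and 2 and 5 in scramble (11.1-fold higher, 5.16 to 28.4). The transducer SMO was 1.21-fold higher (1.14 to 1.28). The transcription factors at the end of the pathway were at the edge of detection, with 3 reads of GLI1, 2 of GLI2 and 1 of GLI3 in shFTO and 2, 2 and 1 in scramble.

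PLCG2 had 282 and 272 reads (13.2 and 12.4 CPM) in the shFTO tables and 21 and 18 reads (1.11 and 0.932 CPM) in the scramble tables. The pooled level was 12.5-fold higher in shFTO (9.04 to 17.8). The ubiquitous relative PLCG1 had 9262 reads in shFTO and 7163 in scramble, and was 1.14-fold higher (1.11 to 1.18). Per kilobase PLCG1 was the more abundant in both conditions, at 22.2 RPKM in shFTO and 19.4 RPKM in scramble, against 0.953 RPKM in shFTO and 0.0761 RPKM in scramble for PLCG2. Of 39 genes of phospholipase C signalling, 22 passed the filter, with a median log2 ratio of 0.14. Among the 22, 3 were at least 2-fold higher and 2 lower, against 5.18% and 6.19% of all genes tested. The higher genes were the lipid-activated kinases PRKCE (2.38-fold, 1.86 to 3.07) and PRKCH (2.1-fold, 1.47 to 3.06) and the phospholipase PLCD3 (2.23-fold, 2.08 to 2.40). The lower genes were GAB2, a docking adaptor (2.14-fold, 1.96 to 2.34), and the phospholipase PLCH2, with 18 reads in shFTO and 36 in scramble (2.27-fold, 1.26 to 4.24). The B cell partners of PLCG2 were nearly absent, with no read of BTK or BLNK in any table and 1 read of SYK in shFTO and none in scramble. Of 6 B cell markers MS4A1 and PAX5 had no read, and the summed level was 9.44 and 7.98 CPM in shFTO against 5.72 and 5.08 CPM in scramble. CD22 was 3.92-fold higher (2.88 to 5.43) and CD79A 3.0-fold higher (1.80 to 5.21). Of 7 leukocyte and macrophage markers PTPRC had no read in any table, and the summed level was 1.40 and 1.69 CPM in shFTO against 1.80 and 1.04 CPM in scramble. Among them ITGAM, an integrin of myeloid cells, had 12 and 18 reads in shFTO and 1 and 0 in scramble, whereas CD14, a monocyte surface protein, was 1.67-fold lower (1.06 to 2.66). The part of these markers in the PLCG2 and NOS2 differences was not tested.

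NOS2 was the least abundant of the 7. It had 15 and 14 reads (0.701 and 0.638 CPM) in the shFTO tables and no read in either scramble table. Setting scramble at 3 reads over its pooled tables, or 0.0785 CPM, the level was at least 8.52-fold higher in shFTO, and the counting interval of that ratio began at 6.50. The gene has partial copies on the same chromosome, and 4 annotated NOS2 pseudogenes held 0 reads in shFTO and 1 read in scramble, and no label says how reads shared by copies were assigned. Of the other synthases, NOS1 had 7 reads in shFTO and none in scramble. NOS3 had 214 reads in shFTO and 243 in scramble (1.29-fold lower, 1.07 to 1.56). NOS3 was thus above NOS2 in both conditions, in shFTO at 0.830 RPKM against 0.153 RPKM. Of 27 genes of nitric oxide and arginine metabolism, 22 passed the filter, with a median log2 ratio of -0.12. Among the 22, none was at least 2-fold higher and 3 were at least 2-fold lower, against 5.18% and 6.19% of all genes tested. ARG1, liver arginase, which uses the same substrate as NOS2, had 5 and 8 reads in shFTO and 124 and 146 in scramble (23.6-fold lower, 13.5 to 44.8). The arginine transporter SLC7A2 was 2.19-fold lower (2.12 to 2.27), and DDAH2, an enzyme that degrades natural inhibitors of nitric oxide synthases, 2.17-fold lower (2.01 to 2.34).

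Genes that cytokines induce together with NOS2, and their regulators, were higher and lower in a mixed way. Of 29 on the list, 22 passed the filter, with a median log2 ratio of 0.20. Among the 22, 1 was at least 2-fold higher and 5 were at least 2-fold lower, against 5.18% and 6.19% of all genes tested. GBP1, an interferon-induced GTPase, had 63 and 51 reads in shFTO and 7 and 4 in scramble (9.14-fold higher, 4.92 to 18.8). SOCS3, a feedback inhibitor of cytokine receptors, was 4.4-fold lower (3.26 to 6.01), LCN2, lipocalin, 2.46-fold lower (2.07 to 2.95), ICAM1, an adhesion molecule, 2.38-fold lower (2.28 to 2.50) and SOD2, the mitochondrial superoxide dismutase, 2.1-fold lower (2.06 to 2.14). Of the NF-kB subunits known to act on NOS2, NFKB1 was 1.35-fold higher (1.28 to 1.41), and RELA had a ratio of 0.976 (0.925 to 1.03).

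C14orf132 ranked first by fold among the 13767 genes tested, genes without a scramble read entering at their bound. The next gene was UNC5B at 147-fold (77.1 to 322), whose interval overlaps that of C14orf132, and without scramble replicate 1 UNC5B came first, at 223-fold against 217-fold for C14orf132. C14orf132 had 494 and 479 reads (23.1 and 21.8 CPM) in the shFTO tables and 3 and 2 reads (0.159 and 0.104 CPM) in the scramble tables. The pooled level was 172-fold higher in shFTO (73.3 to 530), and the width of that interval comes from the 5 scramble reads.

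**Figure D2:**
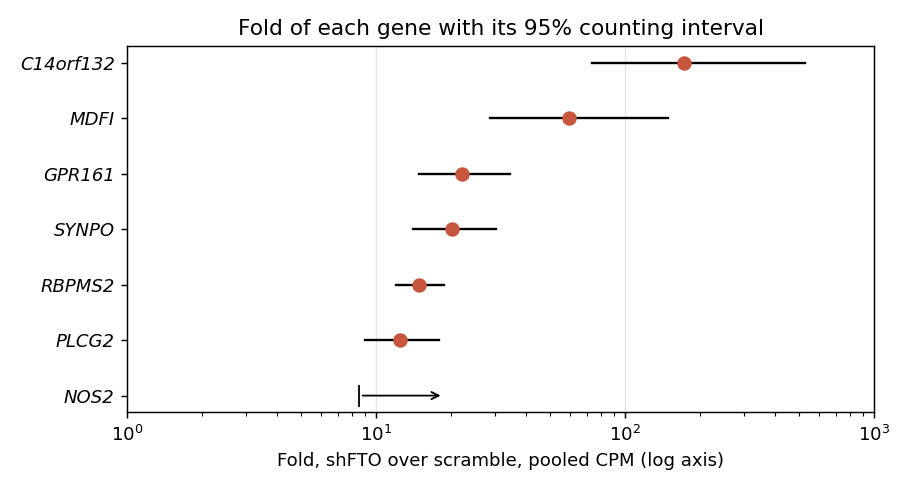
Fold of each gene, shFTO over scramble, on a logarithmic axis, with points for the ratio of pooled CPM and lines for the 95% counting interval. NOS2, with no scramble read, is drawn as a lower bound of 8.52 with an arrow. The intervals of GPR161, SYNPO, RBPMS2 and PLCG2 overlap. That of MDFI, 28.5 to 148, overlaps those of GPR161, SYNPO and C14orf132, and that of C14orf132 reaches from 73.3 to 530.

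Scaled by exon length, the order of the 7 genes differed between the conditions. In shFTO it was RBPMS2 at 16.4 RPKM (exact Poisson interval 15.5 to 17.2), MDFI at 4.30 (3.92 to 4.71), C14orf132 at 2.89 (2.71 to 3.08), SYNPO at 1.55 (1.43 to 1.67), GPR161 at 1.3 (1.20 to 1.40), PLCG2 at 0.953 (0.875 to 1.04) and NOS2 at 0.153 RPKM (0.103 to 0.220). No pair of neighbours in that order had overlapping counting intervals. In scramble RBPMS2 was again first, at 1.10 RPKM (0.879 to 1.35). SYNPO at 0.0766, PLCG2 at 0.0761, MDFI at 0.0726 and GPR161 at 0.0583 RPKM had overlapping intervals and could not be ranked. C14orf132 followed at 0.0168 RPKM (0.00547 to 0.0393), and NOS2 had no read. C14orf132 thus ranked next to last in scramble and behind RBPMS2 and MDFI in shFTO, although its scramble interval overlapped those of GPR161, MDFI and NOS2. In shFTO the share of protein-coding genes with a lower level per kilobase was 86.2% for RBPMS2, 65.6% for MDFI, 59.8% for C14orf132 and 39.3% for NOS2. That share is over all 19314 protein-coding genes with a symbol, those without reads included. Exon length is the union of all annotated exons, which lowers the value of genes with many isoforms.

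**Figure D3:**
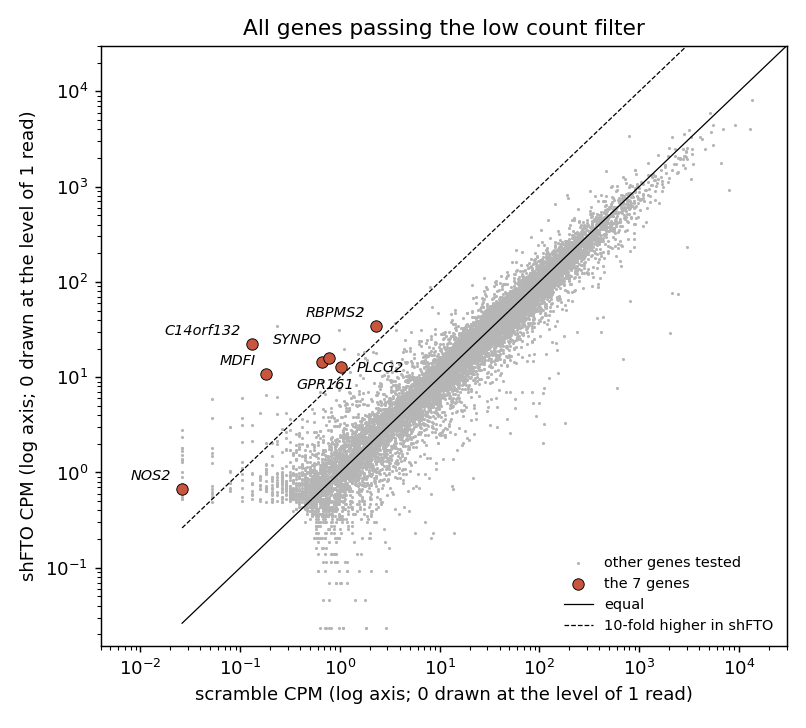
Pooled shFTO CPM against pooled scramble CPM for the 13767 genes tested, both axes logarithmic, each grey point a gene and each red point a member. All but NOS2 reach shFTO levels of 10.8 to 34.4 CPM above the dashed line of 10-fold. NOS2, at 0.669 CPM in shFTO, had no scramble read and is drawn at the level of 1 read, so its place against that line is not a fold; its bound is 8.52-fold.

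The median gene tested had 22.2 CPM in shFTO and 22.3 CPM in scramble. By CPM, which is not scaled by exon length, RBPMS2 and C14orf132 came to that median or above it in shFTO and the others stayed below it. Per kilobase the order was another, with MDFI ahead of C14orf132 in shFTO. The list that picked the 7 genes states no numerical limit. A total of 77 protein-coding genes had at most 2.30 CPM in scramble and a fold of at least 8.52, the extremes among the 7, so 70 other genes share their pattern by that measure. By shFTO level RBPMS2 ranked 3 among the 77, C14orf132 5, SYNPO 10, GPR161 11, PLCG2 12, MDFI 14 and NOS2 69. The 10 most abundant of the other 70 in shFTO were NPNT, UNC5B, RAB31, ATOH8, ITGA3, GSTA2, ISM1, NGFR, EML1 and LRRN4, between 8.12 CPM (LRRN4) and 52.7 CPM (NPNT). ITGA3, an integrin subunit that binds laminin, had 390 and 412 reads in shFTO and 31 and 36 in scramble (10.6-fold higher, 8.22 to 13.8). NGFR, the low-affinity neurotrophin receptor, had 249 and 245 reads in shFTO and 28 and 20 in scramble (9.07-fold higher, 6.74 to 12.5). ISM1, a secreted protein, was 8.98-fold higher (7.0 to 11.7) and EML1, a microtubule-binding protein, 13.8-fold (9.22 to 21.6). GSTA2 has near-identical relatives with which its reads may have been shared.

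Each of the 7 genes lies on a chromosome of its own. C14orf132 (ENSG00000227051) is on chromosome 14, MDFI (ENSG00000112559) on 6, GPR161 (ENSG00000143147) on 1, SYNPO (ENSG00000171992) on 5, RBPMS2 (ENSG00000166831) on 15, PLCG2 (ENSG00000197943) on 16 and NOS2 (ENSG00000007171) on 17. Of 70 neighbours, the 5 nearest tested genes on either side of each, none was past 2-fold upward, against 5.18% of all genes tested, and 5 were past 2-fold downward, against 6.19%. The median log2 ratio of the 70 was 0.05 and the highest was 0.94, whereas the 7 genes themselves ran from a bound of 3.09 to 7.42. Next to C14orf132, the noncoding TCL6 was 2.93-fold lower (2.21 to 3.92), AL163051.1 2.71-fold lower (1.53 to 4.99) and CLMN, a calponin-like transmembrane protein, 2.07-fold lower (1.84 to 2.34). Next to SYNPO, GPX3, the secreted glutathione peroxidase, had 166 CPM in shFTO and 650 CPM in scramble (3.92-fold lower, 3.82 to 4.02), and NDST1, an enzyme of heparan sulfate synthesis, was 2.03-fold lower (1.93 to 2.14). No neighbour of MDFI, GPR161, RBPMS2, PLCG2 or NOS2 was past 2-fold in either direction. All 10 neighbours of GPR161 had ratios above 1, with a median log2 ratio of 0.30, and the highest was ANKRD36BP1 at 1.92-fold (1.34 to 2.78). Near PLCG2, PKD1L2 was 1.85-fold higher (1.44 to 2.38), and near MDFI, PGC was 1.71-fold higher (1.66 to 1.75). Genes annotated within the span of a member held few reads, the most being 8 in shFTO and 1 in scramble for RN7SKP176 within PLCG2, and no label states the strand setting of the counting.

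**Figure D4:**
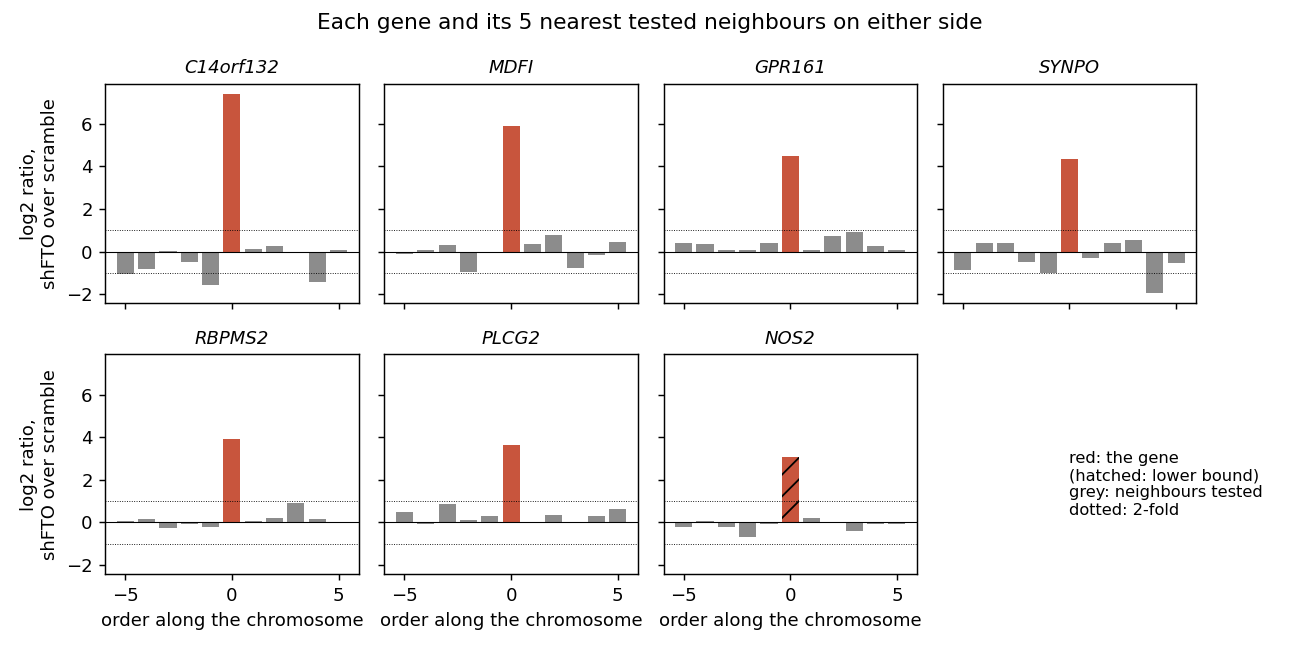
Log2 ratio, shFTO over scramble, of each gene (red, at 0) and of its 5 nearest tested neighbours on either side (grey), in order along the chromosome, with dotted lines at 2-fold. The red bars run from 3.09, a lower bound drawn hatched for NOS2, to 7.42, and no grey bar reaches the upper dotted line; the lowest is GPX3 near SYNPO at -1.97.

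Over all 7 lists of partners and pathways together, 196 genes were listed and 135 passed the filter. Their median log2 ratio was 0.13, against 0.01 over all genes tested. Of the 135, 10 passed 2-fold upward and 14 downward, against 5.18% and 6.19% of all genes tested.

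**Figure D5:**
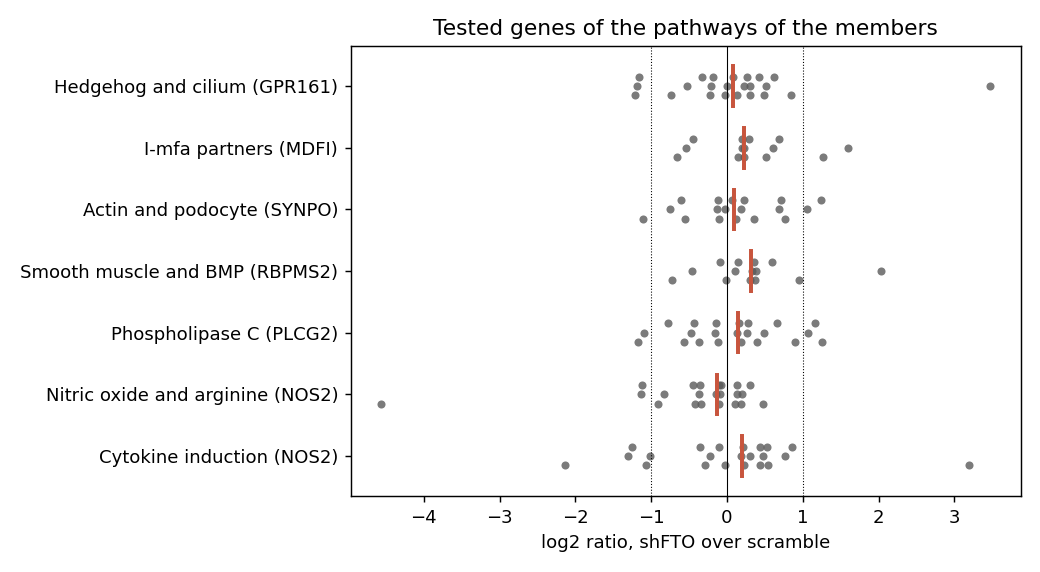
Log2 ratio, shFTO over scramble, of the tested genes of each pathway list, a grey point per gene, with the list's median as a red bar and dotted lines at 2-fold. The medians lie between -0.12 (nitric oxide and arginine) and 0.32 (smooth muscle and bone morphogenetic protein); the points furthest out are ARG1 at -4.56, IHH at 3.47 and GBP1 at 3.19.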

How the data were processed

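The build hg19 and the tools HTSeq 0.6.0 and TopHat2 2.1.1 are credited to the submitters' processing notes, which give no annotation release. Each sample has 1 table in which the authors deposited raw counts per gene. Symbols, gene order and exon lengths came from GENCODE v29 (GRCh38) through the Ensembl identifiers, naming 51537 of 62893 genes, and promoter windows came from RefSeq. Library sizes were scaled with TMM factors (edgeR 4.0.16, R 4.3.3). Genes passing edgeR's filterByExpr count as tested. As the tables of a condition did not differ beyond sampling, no test was run and a gene is counted as higher or lower at a pooled fold of 2. A condition with no read was set to 3 reads over its pooled tables. In each list the up to 4 largest changes each way with at least 20 reads were named, beside paralogs, neighbours past 2-fold and the 10 genes most like the members. Some genes that the rule names are not reported here, and genes named outside it were chosen after their values were seen. The members and lists were chosen with earlier results of these data known. Pooled folds and intervals were tested on simulated data. Alternatives were other scalings and filters, edgeR and DESeq2 1.42.0 fits, the replicate block and leaving out each table.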

Additional observations from a re-analysis of the deposited data

How the results depend on the processing

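The folds of the 7 genes kept their direction in all 67 alternative values and lay inside their counting interval in 65. The exceptions were NOS2 without scramble replicate 1 and without scramble replicate 2, where the floor of 3 reads falls on a single table and the bound became at least 4.31-fold and at least 4.21-fold. C14orf132 ran from 141-fold without scramble replicate 2 to 217-fold without scramble replicate 1. Of the 7 genes 6 were at least 10-fold higher under each other scaling and fit and without each table in turn. Without a filter on low counts 1760 genes were at least 2-fold higher and 1669 lower, and with at least 1 CPM on average 474 were at least 2-fold and 36 at least 10-fold higher (713, 852 and 69 as reported), with the filter setting how many genes are tested. Leaving out each table gave 722 to 785 higher, 860 to 905 lower and 69 to 71 at least 10-fold higher. Plain library size moved the median log2 ratio of all genes by 0.17 and gave 940 higher and 659 lower, so 58.8% of those past 2-fold were higher, against 45.6% with TMM. With the replicate number as a block edgeR gave 711 higher, 848 lower, 71 at least 10-fold higher and 24 list genes past 2-fold. The deviations of equally numbered tables had a correlation of 0.00303 across genes. As the tables of a condition differed by no more than sampling noise, that value cannot show whether equally numbered tables share more than a number. Depth limits NOS2, with 29 reads in all, and the scramble level of C14orf132 and MDFI, with 5 and 7 reads.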

Other observations

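Of 6 cholangiocyte markers 5 passed the filter and the summed level was 1955 and 1944 CPM in shFTO against 1605 and 1612 CPM in scramble. KRT7 had 79 reads in shFTO and none in scramble, at least 23.2-fold higher, while KRT19, another ductal keratin, was 1.97-fold higher (1.92 to 2.02) and SOX9, a ductal transcription factor, 1.48-fold lower (1.44 to 1.52). Of 6 neural markers 2 passed the filter, both at least 2-fold lower, against 6.19% of all genes tested. The summed level of the 6 was 2.66 and 2.60 CPM in shFTO and 8.42 and 8.18 CPM in scramble. Of 7 fibroblast markers 3 had no read, and the summed level was 6.59 and 7.11 CPM in shFTO and 23.1 and 23.8 CPM in scramble. Among them COL1A1 had 135 reads in shFTO and 5 in scramble, and PDGFRB 157 in shFTO and 889 in scramble. None of 5 endothelial markers passed the filter.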
